A study of Rattus norvegicus with 232 samples.

Results

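The HXB/BXH rats are a family of recombinant inbred (RI) strains bred from BN-Lx/Cub and SHR/OlaIpcv, the latter a strain with spontaneous hypertension. The family was taken by name alone, as every strain whose label begins with HXB (20 strains) or BXH (10 strains), which gave 30 of the 74 strains in the gene table used. Each RI strain is homozygous at nearly every locus for an allele of one progenitor or the other, and the crosses ran in both directions. A trait that lies beyond both parents in such a line is called transgressive. Transgression is a textbook feature of RI lines, since a line can combine alleles that were kept apart in its parents. The question asked was which genes, in which strains, had a brain RNA level beyond that of every animal of both progenitors.

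Total RNA depleted of ribosomal RNA had been sequenced from the brain of untreated young adult male rats, with a sagittal part of each brain used. The family comprised 88 RI animals of 1 library each, with 3 animals in 28 strains and 2 in HXB2 and HXB10. BN-Lx/Cub was represented by 3 animals in 4 libraries. SHR/OlaIpcv was represented by 2 animals in 18 libraries, 12 of 1 animal and 6 of the other, and its side of the range therefore rests on 2 rats. Libraries of a strain with the same replicate number in the labels were taken as 1 animal and averaged, which is an assumption. No strain carries an engineered allele or received a treatment. HXB strains bear the suffix /Ipcv and BXH strains /Cub in full, and the suffixes are left out from here on. All values are levels on the log2 scale as deposited, so that a difference of 1 is a doubling, and levels are compared between strains only within a gene.

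The label of whole brain was checked against regional markers. Of the cerebellar markers measured, 9 of 9 passed the filter on low values, as did 8 of 10 for striatum and 7 of 8 for cortical glutamatergic neurons. For hypothalamus 2 of 10 measured passed, for olfactory bulb 1 of 8, and for hindbrain, pituitary and pineal 0 of 8, 4 and 3. The deposited values give no counts, so depth is unknown; the library medians lay between 8.18 and 8.42. Over the 2000 genes that separated the labelled strains most, a choice that itself favours closeness within a strain, the nearest animal was of another strain for 13 of 93 animals. Among these, 4 RI animals, of BXH6, BXH9, HXB20 and HXB23, were closest to BN-Lx animal 1. Over 500 genes chosen in the same way it was of another strain for 1 animal, of BXH9, which was closest to BN-Lx animal 1.

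A strain was counted as above the progenitor range for a gene when all its animals lay above all 5 progenitor animals, and as below in the mirror case. Of 10429 genes tested, 7522 (72.1%) had at least 1 such strain, in 28524 of 312870 pairs of gene and strain (9.12%). The excursions were small. The median distance from the edge of the range to the nearest animal of the strain was 0.05, and its 90th percentile was 0.17, whereas the median SD within RI strains was 0.14. Pairs above the range (16626, 5.31%) outnumbered pairs below it (11898, 3.8%). At least 1 strain lay above the range for 40.4% of the genes and below it for 34.6%. Strains lay only above for 3910 genes, only below for 3313, and on both sides for 299.

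Permuted strain labels gave much of this count. When strain labels were permuted over the RI animals 100 times, with the progenitors kept, the count of pairs averaged 21660.5 (range 18055 to 27367). The observed count was 31.7% higher than that mean and above all 100 permuted counts. Labels permuted within sequencing batches gave a mean of 21568 (17313 to 27395). With labels permuted over all RI animals, pairs above averaged 12934 and pairs below 8727, the same order as observed. With libraries centred on their medians the observed counts were 15073 above and 13632 below. For genes with at least 1 strain outside, 7522 compared with a permuted mean of 6125 (5248 to 7158). For genes with at least 10 such strains, 524 compared with 396 (247 to 581), and for at least 15, 63 compared with 53.6 (25 to 129), both within the permuted range. The plot of permuted counts shows the observed values against these distributions.

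**Figure D1:**
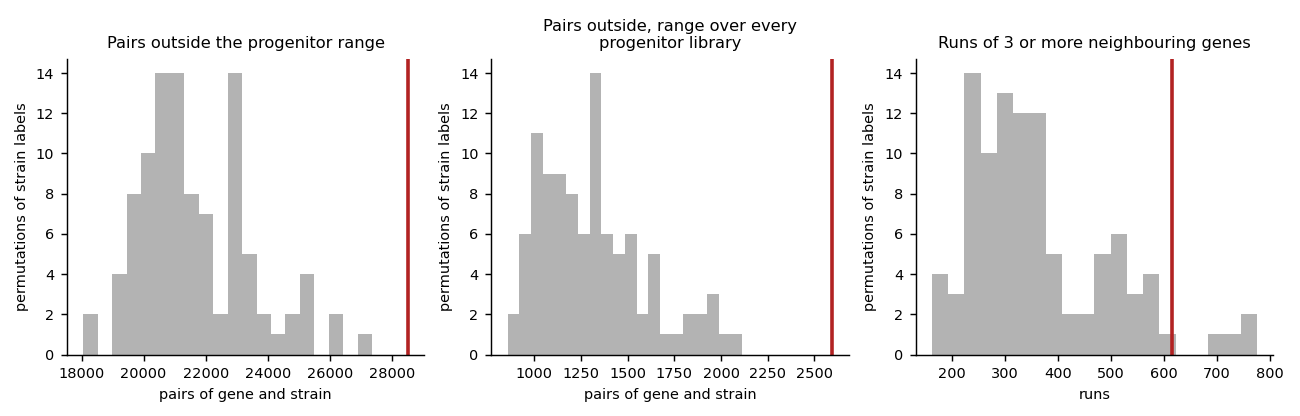
Histograms of 100 permutations of strain labels over the HXB/BXH animals, with the number of permutations on the y axis and, on the x axis, pairs outside the range of progenitor animals (left), pairs outside the range of single progenitor libraries (middle) and runs of neighbouring genes (right). The red line is the observed count: 28524 and 2597 pairs lie to the right of every permuted count, whereas 616 runs lie within the permuted range of 162 to 775.

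The range itself depended on few animals. BN-Lx animal 1 set 41.6% of the upper and lower edges and BN-Lx animal 2 set 23.0%, whereas BN-Lx animal 3 set 5.93% and the SHR animals 14.6% and 14.8%. BN-Lx animals 1 and 2 were single libraries, as was each RI animal. BN-Lx animal 3 was the mean of 2 libraries, and the SHR animals were means of 12 and 6. Averaging lowers the spread of a value, and its part in the edge shares and in the split by side was not tested. When the upper side of the range was named after the progenitor with the higher mean and the lower side after the other, 24274 of the pairs outside lay on the SHR side and 4250 on the BN-Lx side. BN-Lx animal 1 enters both the edges and the means in this split, and 18423 of the pairs were in genes whose progenitors overlapped, where the edge of the SHR side can be a BN-Lx animal. Of the 4148 genes whose BN-Lx and SHR animals did not overlap, 69.9% had a strain outside, compared with 73.6% of the 6281 others. Genes in the narrowest quintile of range widths gave 28.3% of the pairs and those in the widest quintile 12.4%. With the range drawn over every single progenitor library, whose median width was 0.67 compared with 0.43 over animals, 2597 pairs (0.83%) in 1595 genes (15.3%) remained outside, compared with a permuted mean of 1313 (856 to 2113). More than 0.5 outside the range were 107 pairs in 47 genes, against a permuted mean of 69.8 (28 to 173). Of these, 20 pairs were below the range, where permutation gave 2.41 (0 to 9), and 87 were above, where it gave 67.4 (26 to 171). Without BN-Lx animal 1 and the 4 RI animals closest to it, 42966 pairs were outside, with a permuted mean of 34259.

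The strains differed widely in how many genes lay outside the range. HXB1 had 3430 genes outside, 32.9% of those tested, split into 1722 above and 1708 below. HXB2, with 2 animals, had 3322. HXB3 (1972), HXB17 (1754), HXB29 (1599), HXB13 (1584) and BXH13 (1477) followed, and the median strain had 803. At the other end HXB23 had 114 genes outside, BXH6 had 125 and BXH9 had 126, and each of these holds an animal closest to BN-Lx animal 1. Among permuted strains of 3 animals the highest number averaged 2343 (1261 to 3829), so that the number in HXB1 is within what relabelling gave. Without HXB1 and HXB2 the family had 21772 pairs outside, compared with 18187 (15665 to 20789) after 20 permutations. HXB strains averaged 1037 genes (SD 975, n = 20) and BXH strains 778 (SD 478, n = 10).

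**Figure D2:**
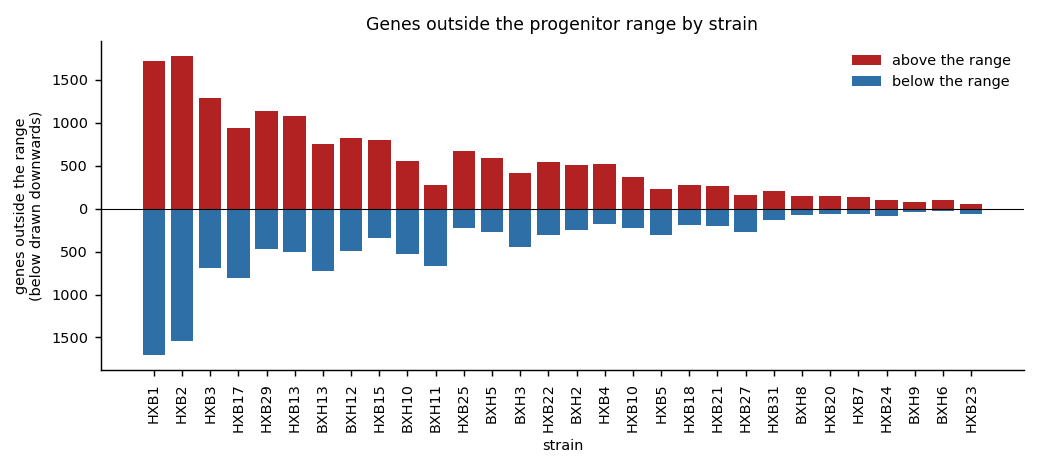
Number of genes above (red, upwards) and below (blue, downwards) the range of the progenitor animals in each of the 30 HXB/BXH strains, ordered by their sum. HXB1 and HXB2 stand apart with 3430 and 3322 genes, and HXB23 has the fewest with 114.

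Strains from outside the family also had genes beyond the range of these progenitors. Among them was BN/NHsdMcwi, a BN substrain, with 1067 such genes. Per the study, the RI and progenitor brains were kept in liquid nitrogen and those of its classic inbred strains in RNAlater. Most of the other strains also shared no sequencing batch with the RI animals. Strain group, storage and batch cannot be told apart here. The 30 RI strains averaged 951 genes outside (SD 843), and the 25 other strains with 3 animals 769 (SD 532). The difference of 182 did not pass a two-sided permutation test (p = 0.361). By the same test the difference was 110.2 without HXB2 and HXB10, the strains of 2 animals (p = 0.549), and 61.1 without BN-Lx animal 1 (p = 0.769). Its sign turned in other settings: with batch effects subtracted the other strains exceeded the RI strains (difference -1285), as they did in the Ensembl table of version 5 (-1025). In that subtraction, repeat SHR libraries are the main link between the batches of both groups. The table of version 5 held only 12 such other strains, with a mean of 1591 genes outside against 566 in the RI strains.

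Whether an animal not used for the choice also lay outside was examined by leaving out each animal of a strain in turn, in order of replicate number. Where 2 animals of a strain were outside on the same side, the third was outside on that side in 55.6% ± 7.2 of pairs (SD over 3 rotations). The rotations share animals and pairs, so this SD is not a spread between independent samples. Over all RI animals of the same genes, including those used for the choice, the share was 46.5%. With the last animal of each strain held out the share was 47.3%, close to the 46.2% of all animals, and with the first or second it was 59.3% and 60.2%. Where the third animal shared a batch with one of the others the share was 54.7% ± 3.1, and 60.9% ± 15.6 where it did not.

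A stricter question is whether a strain differed from each progenitor beyond the spread between animals. In a limma fit of 1 mean per strain over all genes, 33 pairs (0.0105%) of 16 genes (0.153%) differed from both progenitors in the same direction at a Benjamini-Hochberg adjusted p under 0.05, 11 above and 22 below. All 33 lay outside the range of the progenitor animals. At an unadjusted p under 0.05 there were 10002 pairs. In simulated data the fit recovered 29 of 100 planted differences of 0.5 and 86 of 100 of size 1.0, with 0 calls elsewhere. The simulation held no difference between the progenitors and no other strain or batch effects. Its 0 calls elsewhere therefore do not cover strains that differ from 1 progenitor only. The calls leaned on the SHR animals: without SHR animal 1 there were 15 calls, of which 9 were among the 33, and without SHR animal 4 there were 3. With batch effects subtracted there were 194 calls, 29 of them among the 33. Batch was estimated beside strain before that fit, which does not allow for this estimation, so its p-values can be too small. In none of the 25 other strains did the mean of any of the 16 genes reach the level of its called RI strains. The genes were called for their RI levels, so this is a description, and most of these strains shared no sequencing batch with the RI animals. Outside the range on the called side were 18 other strains for Marchf8, 17 for LOC103693818, 13 for Rffl and 7 for Ndrg3. The number was 0 for Dgke, LOC120096504, Oscp1, Pcdhga10, Pink1 and Rpl8, and 1 to 6 for the rest.

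Ndrg3, a member of the N-myc downstream-regulated family, made up 11 of the 33 calls. BN-Lx animals were at 13.28, 13.48 and 13.41 and SHR animals at 12.88 and 12.86. HXB21 was lowest, at 12.20, 12.21 and 12.23, and BXH8 followed at 12.29, 12.15 and 12.27. HXB27 was the only strain above the range, at 13.55, 13.53 and 13.52. HXB21 and BXH8 lay clear of every progenitor animal, and HXB27 lay just over the highest of BN-Lx.

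The strain means of Ndrg3 formed 3 blocks when divided at the 2 widest gaps. The lowest held 11 strains with means from 12.21 to 12.45, the middle 9 strains from 12.75 to 12.87, and the highest 10 strains from 13.33 to 13.53. The SHR mean (12.87) lay at the top of the middle block and the BN-Lx mean (13.39) inside the highest. The gaps between blocks were 0.29 and 0.46, and the largest step between neighbouring strains within a block was 0.09. Each block held both HXB and BXH strains and 7 sequencing batches. In all, 16 strains were below the range and 1 above, where permuted labels gave 7.01 on average and at most 10. The 11 strains of the lowest block were those called by limma. HXB21 differed from SHR by -0.66 ± 0.08 (SE) and from BN-Lx by -1.18 ± 0.07 (adjusted p = 6.67e-06). BXH10, the weakest call, differed from SHR by -0.42 ± 0.08 (adjusted p = 0.0481). HXB21 and BXH8 were called in all 13 alternative fits of this table, and the other 9 strains in 7 to 12 of them. Among the 25 other strains the lowest mean was 12.46, in LEXF10B/Stm.

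**Figure D3:**
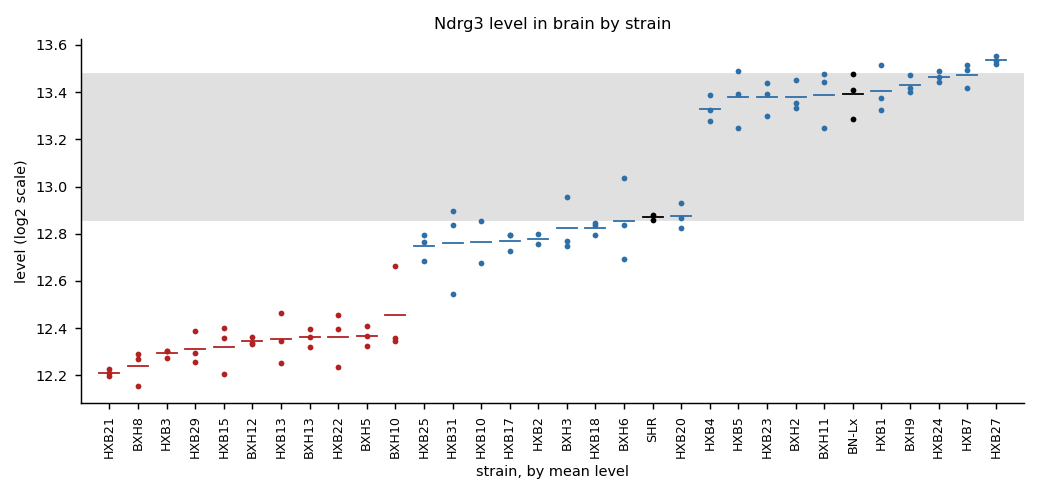
Ndrg3 level (log2 scale) of every animal (points) and the mean of each strain (bars), with strains ordered by mean. Red marks the 11 strains called below both progenitors by limma, blue the other RI strains and black the progenitors, and the grey band is the range of the progenitor animals, 12.86 to 13.48.

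Ndrg3 was read beside features that may be near copies of it. RefSeq lists a pseudogene, Ndrg3-ps1, and the features LOC120101769 and LOC120101770 beside Ndrg3. A further feature, LOC102554288, moved opposite to Ndrg3. It was at 9.22, 9.30 and 9.11 in BN-Lx and at 11.04 and 11.21 in SHR. It was above the range in 10 strains, all of the lowest Ndrg3 block, with HXB21 at 11.62, 11.56 and 11.44 and BXH8 at 11.69, 11.96 and 11.59. It was below the range in 5 strains, BXH9, HXB1, HXB5, HXB7 and HXB24, all of the highest block. Over the 30 strain means Pearson's r between both was -0.97, a description over values from the same libraries, with LOC120101770 it was -0.75, and with LOC120101769, which did not pass the filter, it was 0.88. The LOC features were picked by hand, without a RefSeq name that marks them as copies of Ndrg3. The values of r and of the sum depend on that choice. No feature was matched to Ndrg3-ps1, so the sum leaves it out. When the linear values of the 4 features were summed, the span of RI animals narrowed to 13.22 to 13.78. The sum was below the progenitor range in 12 strains and above it in HXB27. Summed, HXB21 was at 13.32, 13.26 and 13.22 compared with 13.49 to 13.66 in the progenitors. Of the called strains BXH5 alone overlapped that range, at 13.42, 13.29 and 13.52. The limma fit was not repeated on the sum. Whether reads were divided between these features was not tested.

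The ribosomal protein genes among the calls have features that RefSeq names as copies. Rps25 encodes a protein of the small ribosomal subunit and was called below both progenitors in BXH12 (10.77, 9.28 and 9.78, compared with 12.68, 12.28 and 12.06 in BN-Lx and 11.66 and 11.44 in SHR). LOC685085, which RefSeq names Rps25l3, was called above in BXH12 (11.15, 11.85 and 11.49), BXH13, BXH2 and HXB5, and the progenitors were between 9.15 and 10.00. Of 13 alternative fits, the Rps25 call held in 8 and the LOC685085 calls in 8 or 9. The strain means of the pair had r = -0.93 (30 strains). Rps25 was below the range in 7 strains, BXH2, BXH3, BXH5, BXH8, BXH12, BXH13 and HXB5, and LOC685085 was above in all of these and in BXH6 and BXH11. With the linear values of Rps25 and the features named as its copies summed, 2 strains remained below the range, BXH3 and BXH5, and BXH12 at 11.98, 12.08 and 11.88 overlapped it. With batch effects subtracted LOC685085 was above the range in 9 strains and below it in 11.

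Rpl8, a protein of the large ribosomal subunit, was called below in BXH2 at 10.49, 11.21 and 10.60, compared with 12.11 to 12.42 in the progenitors. BXH2 was not outside the range of single progenitor libraries, and in 7 other strains Rpl8 was above the range of progenitor animals. The feature that RefSeq names Rpl8-ps7, LOC100360117, was at 9.44, 9.91 and 9.82 in BXH2, above its progenitor range, which ended at 8.14 in BN-Lx animal 1. Summed with it, Rpl8 in BXH2 was at 11.06, 11.70 and 11.26 and was still below the range of the progenitors. BXH2 also held the largest distance below the range in any pair, for LOC120096504, at 10.04, 10.14 and 10.12 where the progenitors were between 11.21 and 13.03 (adjusted p = 0.00304, limma). The call for Rpl8 held in 11 of 13 alternative fits and that for LOC120096504 in 7.

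The smallest adjusted p belonged to Pink1, the mitochondrial kinase whose loss causes a recessive form of Parkinson's disease in humans (chromosome 5, 150484541 to 150542880 in the authors' annotation). BXH5 animals were at 10.02, 10.19 and 10.03. BN-Lx was at 10.99, 11.18 and 11.04 and SHR at 11.26 and 11.10, and the other 85 RI animals were between 10.74 and 11.59. No animal of any other strain of the family overlapped BXH5. BXH5 differed from BN-Lx by -0.99 ± 0.10 (SE) and from SHR by -1.10 ± 0.11, with an adjusted p of 1.45e-09 by limma, and was called in all 13 alternative fits of this table. The lowest mean among the 25 other strains was 10.95.

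Further genes were called below both progenitors in 1 strain each. Dgke, diacylglycerol kinase epsilon (chromosome 10, 73812309 to 73877334), was at 9.46, 9.66 and 9.52 in HXB31, where the progenitors were between 10.26 and 11.05 and the other 85 RI animals between 10.23 and 11.10. HXB31 thus lay apart from every other animal of the family (adjusted p = 0.00312, limma). Fstl5, which encodes a secreted follistatin-like protein (chromosome 2, 160857989 to 161526589), was at 10.27, 10.40 and 9.84 in HXB25, compared with 11.12 to 12.15 in the progenitors. Other RI animals reached down to 10.63, BXH10 and BXH11 were below the range too, as were 3 of the 25 other strains, and the call was near the threshold (adjusted p = 0.0481). Oscp1 (chromosome 5, 138334552 to 138365220) was at 8.61 and 8.41 in both animals of HXB2, compared with 9.17 to 9.34 in the progenitors and 9.04 to 9.62 in the other 86 RI animals (adjusted p = 0.00037). HXB2 therefore stands clear of the family for Oscp1, on 2 animals. Of 13 alternative fits, Oscp1 was called in 11, Dgke in 10 and Fstl5 in 6.

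Other single calls below both progenitors were Pcdhga10 in HXB21, Shprh in HXB17, and Rffl and Marchf8 in BXH13. Pcdhga10 belongs to the clustered protocadherins, whose members share sequence, and was at 8.92, 8.99 and 9.01 compared with 9.22 to 9.98 in the progenitors. In the other 85 RI animals it was between 9.38 and 10.22. Shprh, a ubiquitin ligase with a helicase domain, was at 11.01, 11.07 and 10.97 compared with 11.35 to 11.80. Rffl and Marchf8 are ubiquitin ligases too. Rffl was at 9.85, 9.90 and 9.84 in BXH13, with progenitors between 10.26 and 10.41, and Marchf8 at 11.10, 11.16 and 11.10, with progenitors between 11.40 and 11.59. For both genes animals of other RI strains reached the same level, and 11 and 16 strains respectively were below the range, against permuted means of 7.53 and 11.2. Rffl was called in 3 of 13 alternative fits, Shprh in 4, Marchf8 in 5 and Pcdhga10 in 6.

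**Figure D4:**
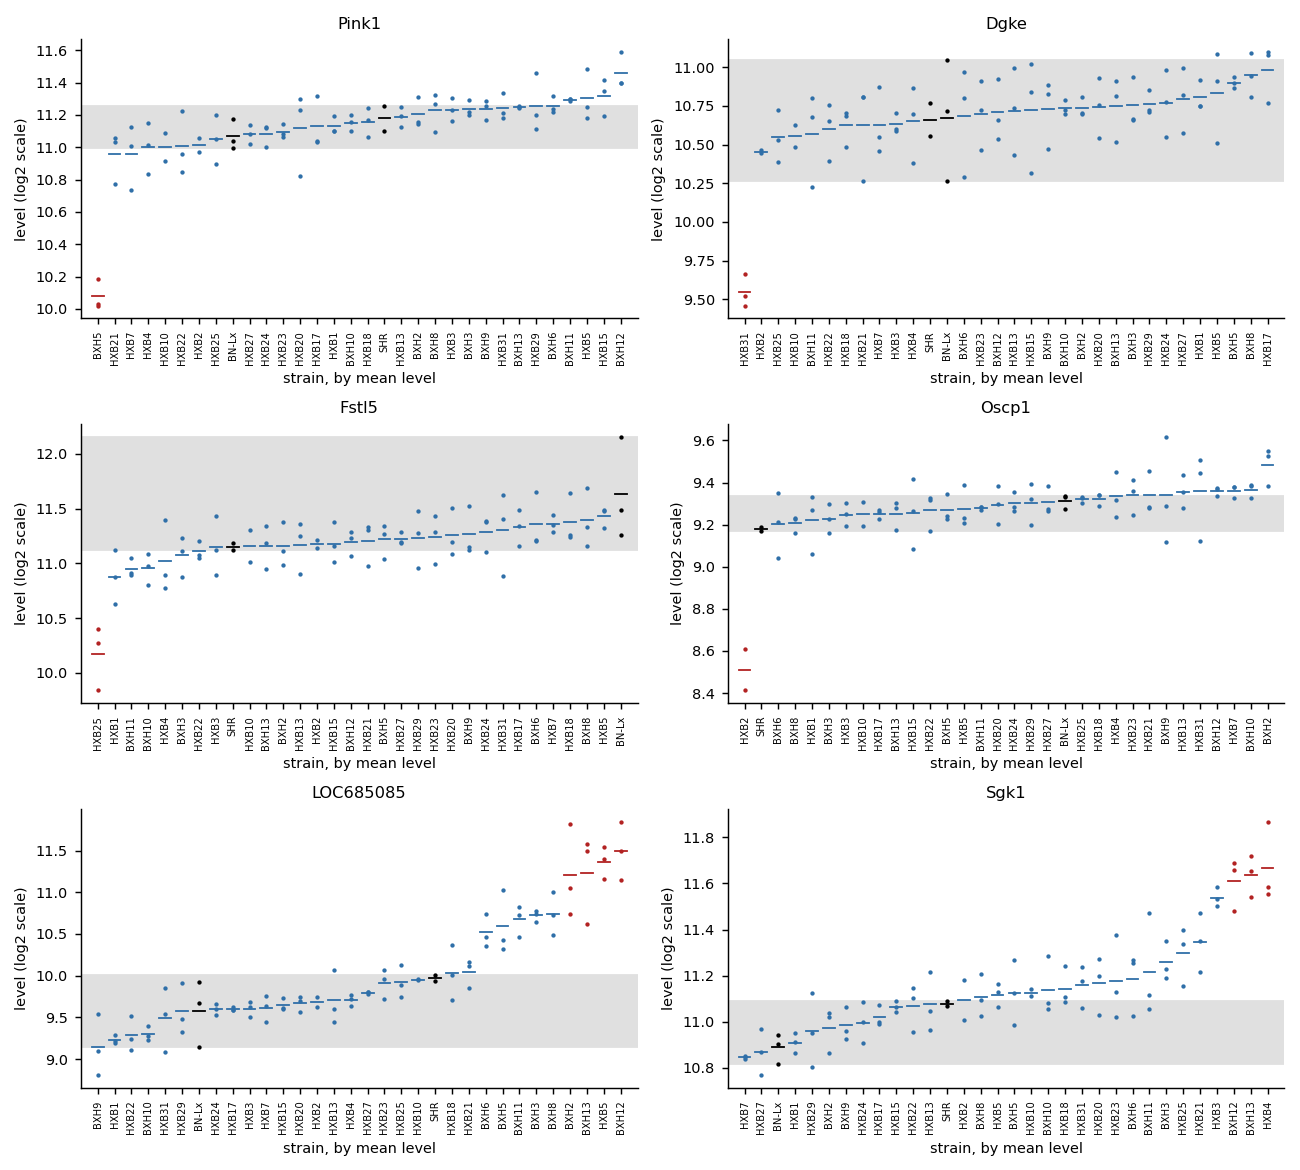
Level (log2 scale) of every animal (points) and strain mean (bars) for 6 genes with calls, with strains ordered by mean within each panel. Red marks strains called beyond both progenitors by limma, black the progenitors and blue the other RI strains, and the grey band is the range of the progenitor animals. Pink1 in BXH5, Dgke in HXB31 and Oscp1 in HXB2 lie apart from every other strain, whereas called strains of LOC685085 and Sgk1 continue a graded series.

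Calls above both progenitors numbered 11, and the 22 below include the 11 of Ndrg3. This order turned in other settings, with 130 above and 64 below once batch effects were subtracted, 45 and 38 with no filter, 149 and 115 in the table of version 5, 21 and 18 in that of version 6, and 9 and 6 without SHR animal 1. Abcg2, an efflux transporter of the blood-brain barrier (chromosome 4, 87676241 to 87803277), was at 9.27, 9.51 and 9.70 in BXH6. BN-Lx was at 8.99, 8.64 and 8.36 and SHR at 8.72 and 8.60, and BXH6 did not overlap them (0.83 ± 0.12 over BN-Lx and 0.83 ± 0.14 over SHR, adjusted p = 0.00186, limma). Abcg2 was above the range in 7 strains and below it in 3, where permuted labels gave 1.67 strains on average and at most 5. The Abcg2 call held in 8 of 13 alternative fits and was lost with batch effects subtracted. LOC103693818 was above the range in 12 strains, with a permuted mean of 2.86, and was called in BXH2, BXH3 and BXH5. These calls held in 8, 6 and 6 of 13 alternative fits, and all 3 were lost with batch effects subtracted. Its level also lay above the progenitor range in 17 of the 25 other strains.

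Sgk1, serum- and glucocorticoid-regulated kinase 1 (chromosome 1, 22980257 to 23098122), was called above both progenitors in BXH12, BXH13 and HXB4. BN-Lx was at 10.82, 10.94 and 10.90 and SHR at 11.07 and 11.09. HXB4 was at 11.87, 11.58 and 11.55 (adjusted p = 0.00358), BXH13 at 11.72, 11.54 and 11.65 (adjusted p = 0.0105) and BXH12 at 11.48, 11.66 and 11.69 (adjusted p = 0.0252, limma). None of these animals overlapped the progenitors. HXB3, at 11.53, 11.58 and 11.50, was outside the range without a call, as were BXH3, HXB10, HXB21 and HXB25. The calls held in 8 of 13 alternative fits for HXB4, 7 for BXH13 and 6 for BXH12. All 3 were lost when SHR animal 1, SHR animal 4, replicate 1 or replicate 2 was left out, and with replicate numbers fitted as a block. Those of BXH12 and BXH13 were also lost without replicate 3, and that of BXH12 also with centred libraries.

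Sgk1 was read together with 7 other genes that glucocorticoid hormones are known to induce, Nfkbia, Per1, Fosl2, Gpd1, Zbtb16, Tsc22d3 and Fkbp5. These were chosen after their values were seen, so their counts are a description. In BXH12, 7 of the 8 were above the range of the progenitor animals and the same 7 above that of single libraries. BXH13 had 6 above, HXB3 had 5, and HXB4, BXH8 and BXH10 had 4 each. Of all genes tested, 7.83% were above the range in BXH12, 7.18% in BXH13, 12.3% in HXB3, 4.96% in HXB4, 1.40% in BXH8 and 5.29% in BXH10. No strain had any of the 8 below the range. With libraries centred on their medians the counts were the same in these strains, apart from 7 in BXH13.

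Nfkbia encodes the inhibitor that holds NF-kappa-B in the cytoplasm. It was at 9.59, 9.55 and 9.64 in BXH12 and at 9.72, 9.55 and 9.50 in HXB4, where BN-Lx was at 8.67, 9.13 and 9.01 and SHR at 9.05 and 9.18. Per1, a clock gene, was at 10.78, 10.91 and 10.73 in BXH12 and 10.92, 10.82 and 10.73 in HXB3, compared with a progenitor range of 9.51 to 10.51. In both genes the named strains cleared the range. Gpd1, glycerol-3-phosphate dehydrogenase, was at 12.03, 11.99 and 11.91 in BXH12 where the progenitors reached 11.54, but 1 animal of BXH13, at 11.31, lay inside the range. Tsc22d3, which encodes the leucine zipper protein GILZ, was above the range in 10 strains, with a permuted mean of 7.81.

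The mean over the 8 genes was between 10.85 and 10.87 in BXH12, between 10.74 and 10.89 in BXH13, between 10.65 and 10.75 in HXB3 and between 10.71 and 10.86 in HXB4. Progenitor animals were between 10.10 and 10.51 and the median RI animal was at 10.49. With batch effects subtracted, 7 of the 8 genes were above the range in BXH12 and BXH13 and 5 in HXB3 and HXB4, but 6 were above in HXB13 and HXB25 and 5 in HXB2, HXB5 and HXB18 as well. In that setting limma called 19 pairs of 6 of these genes, of which 17 were in the first 4 strains. Both the genes and these strains were chosen after their values were seen, and the fit does not allow for the estimation of batch. Immediate early genes, which neurons induce within minutes of activity, were above the range in part of the same strains. Arc, Nr4a1 and Dusp1 were above in BXH12, Junb, Arc and Nr4a1 in HXB3, Arc and Nr4a1 in BXH13, and Arc and Dusp1 in HXB4, of 7 genes that passed the filter. BXH5, HXB13 and HXB22 had 2 of the 7 above as well. Over single libraries 1 of the 7 was above in BXH12 and in BXH5, and 0 in HXB3, BXH13, HXB4, HXB13 and HXB22. HXB25 had 5 of the 7 above, where 6.41% of all genes were above, but 0 of the 7 were above the range of single libraries. With batch effects subtracted 5 of the 7 were above in HXB3, HXB5, HXB13 and HXB22 too.

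**Figure D5:**
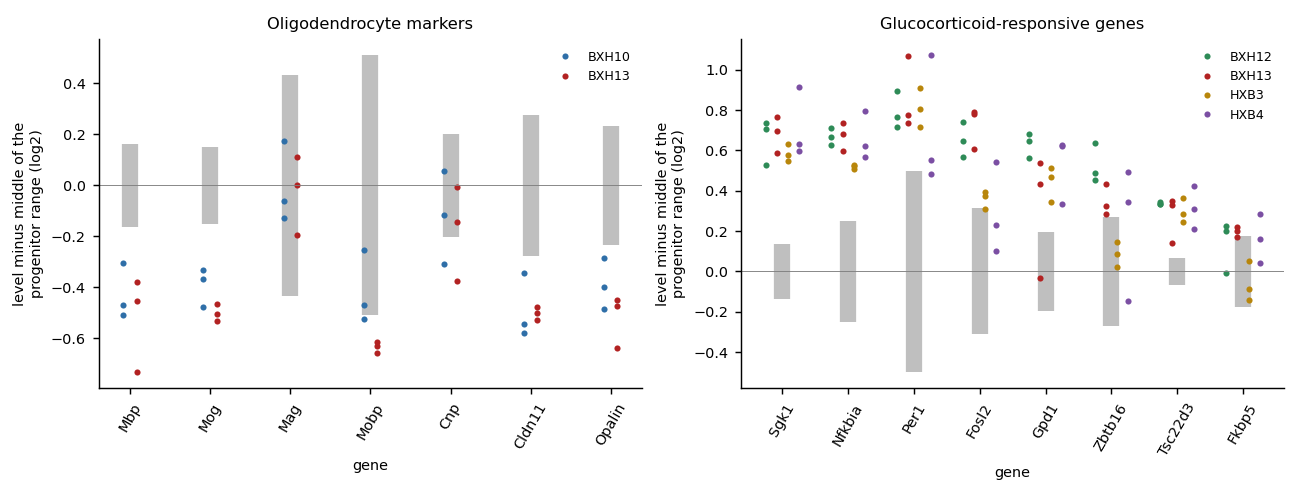
Levels (log2 scale) of single animals relative to the middle of the progenitor range, for 7 oligodendrocyte markers in BXH10 and BXH13 (left) and 8 glucocorticoid-responsive genes in BXH12, BXH13, HXB3 and HXB4 (right). Grey bars span the progenitor animals. BXH13 lies under the bar for 5 of the 7 markers, and BXH12 lies over it for 7 of the 8 glucocorticoid-responsive genes.

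Oligodendrocytes wrap axons in myelin, and several of their markers were low in BXH13 and BXH10. Of the markers, 7 are described here, and all 7 had at least 1 strain outside the range, with a median of 3 strains, against 72.1% of genes and a median of 2 strains over all genes tested. In BXH13, Mbp, Mog, Mobp, Cldn11 and Opalin were below the range, 3 of them below every single progenitor library, where 6.98% of all genes were below the range. In BXH10, 4 of the 7 were below, the same genes without Mobp, and none was below every single progenitor library, where 5.03% of all genes were below the range. No other strain had more than 2 below. Mag and Cnp were not outside the range in either strain, although 1 animal of each strain was below it for Cnp.

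Mog, a protein of the outer myelin surface (chromosome 20, 1512894 to 1605976), was at 11.78, 11.80 and 11.84 in BXH13 and at 11.94, 11.98 and 11.83 in BXH10. BN-Lx was at 12.38, 12.38 and 12.39 and SHR at 12.16 and 12.46, and neither RI strain overlapped them. Mog was below the range in 10 strains, where permuted labels gave 3.98 on average and at most 7, although with batch effects subtracted it was below in 3 and above in 1. Over single progenitor libraries Mog was below in 1 strain. No marker pair was called by limma. Ugt8, Tspan2 and Enpp6, further oligodendrocyte genes chosen after their values were seen, were also below the range in both strains. All 3 were below in BXH12 too, or 1 of them with batch effects subtracted, and over the family Tspan2 was below in 7 strains and Enpp6 in 6. Enpp6 was at 9.31, 9.24 and 9.53 in BXH13 and 9.42, 9.53 and 9.11 in BXH10, with a progenitor range of 9.96 to 10.72.

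The mean over the 7 markers was 13.41 to 13.53 in BXH13 and 13.51 to 13.65 in BXH10, below the progenitor animals, which were between 13.81 and 13.96. In bulk brain, fewer oligodendrocytes and less RNA per oligodendrocyte cannot be told apart. With these low levels BXH13 had 5 limma calls (Rffl, Marchf8, Sgk1, Ndrg3 and LOC685085) and BXH10 had 1 (Ndrg3), and the part of the oligodendrocyte level in them was not tested. Subtracting batch effects or centring libraries left the same numbers of markers below in both strains. Of the 8 astrocyte markers none was outside the range in BXH13 or BXH10. Of 7 microglial genes P2ry12 was below the range in both strains, with Tmem119 above it in BXH10.

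Of the immune lists, the class I gene RT1-A2 was above the range in 13 strains, with a permuted mean of 4.91 and at most 8. BN-Lx was at 8.72, 9.14 and 9.04 and SHR at 8.29 and 8.21. RT1 genes are a multigene family, and reads could be divided between its members, so its counts are uncertain. RT1-CE5 and Cd74, the class II invariant chain, were each above in 6 strains, with permuted means of 4.77 and 1.3, whereas RT1-A1 had none outside. Over single progenitor libraries RT1-A2 was above in 2 strains, RT1-CE5 in 0 and Cd74 in 2. Of the 13 interferon-stimulated genes 4 passed the filter, and all 4 had strains outside, with a median of 7 strains, compared with 72.1% of genes and a median of 2 over the whole table. Irf9, a subunit of the interferon-activated factor ISGF3, was above the range in BXH6, HXB2, HXB3 and HXB22 and below it in 6 others, where permuted labels gave 1.93 strains. Mx2 was above in HXB2 and HXB22 and below in 6 strains, and Ifi27 was above in 6. HXB22 and HXB2 thus had Irf9, Mx2 and Ifi27 all above the range, as were 539 genes of all those tested in HXB22 and 1780 in HXB2, the latter on 2 animals. Over single progenitor libraries Irf9 was above in 0 strains and below in 3. Mx2 was then above in 1 and below in 3, and Ifi27 above in 2.

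Receptor genes of fast inhibition were mostly inside the range. Of 13 GABA-A receptor subunits, all measured, 3 had a strain outside and all of those were below, compared with 72.1% of genes over the whole table. The median number of strains outside was 0, against 2 over all genes tested. Gabra4 was below in BXH3, HXB1 and HXB3, and in 10 strains once batch effects were subtracted. Of the 13 ionotropic glutamate receptor subunits that passed, 8 had a strain outside. Grik3, a kainate receptor subunit, was above in 7 strains, with a permuted mean of 1.45 and at most 4, or in 4 strains with centred libraries, and the AMPA receptor subunits Gria1 to Gria4 had none. Over single progenitor libraries Grik3 had 0 strains outside. No subunit of either kind was called by limma.

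Lists chosen for the panel's history had shares of genes with a strain outside that are to be read against the 72.1% of all genes. Of the renin-angiotensin genes 3 passed. Agt, angiotensinogen, was above in 11 strains (permuted mean 8.75, at most 12), Ace above in 3 (permuted mean 2.24) and Atp6ap2 below in 5 (permuted mean 2.44). Over single libraries Agt and Atp6ap2 had 0 strains outside and Ace 1. Of 7 genes of alcohol and aldehyde metabolism that passed, 6 had a strain outside, and Cat, catalase, was above in 4 (permuted mean 1.89), in 3 of them also over single libraries. Of the 9 monoamine genes, 5 had a strain outside. Slc18a2, the vesicular transporter, was below in 5 strains (permuted mean 3.15), Htr2c, a serotonin receptor, below in 4 (permuted mean 4.46) and Drd2, a dopamine receptor, above in 3 (permuted mean 1.95). Of 12 clock genes, 10 had a strain outside, with a median of 2.5 strains against 2 over all genes. HXB17 had Per1, Per3, Cry2, Nr1d1 and Dbp above the range and Arntl, which encodes their activator BMAL1, below it, in a strain with 9.04% of all genes above and 7.78% below. With centred libraries 4 clock genes were above and 0 below in HXB17, and with batch effects subtracted 3 and 1. Of 10 glutathione S-transferases 8 had a strain outside, and Gstp1 was above in 13 (permuted mean 9.72). Tek, the endothelial receptor of angiopoietins, was below in 12 strains (permuted mean 5.66), whereas the endothelial marker Cldn5 was above in 5 (permuted mean 2.38) and Abcb1a and Esam in 1 each. Tmem119, a microglial marker, was above in 11 and below in HXB10 (permuted mean 4.05). Over single libraries Gstp1 was above in 2 strains, Cldn5 in 0 and Tmem119 in 1, and Tek was below in 5. None of these was called by limma.

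Of the 8 interneuron markers 7 had a strain outside, with a median of 2.5 strains, compared with 72.1% of genes and a median of 2 strains over the whole table. Of the 9 cerebellar markers that passed 2 had a strain outside, and of the 8 striatal markers 4. Slc17a7, the vesicular glutamate transporter of cortical neurons, was above in 6 strains and Vip, a peptide of interneurons, below in 7, against permuted means of 3.99 and 5.48. Markers of the same lists also lay on the other side: Gad1, an enzyme of GABA synthesis, was above in 3 strains (permuted mean 0.19), Sst was above in 2 (2.25), Cck was above in 2 and below in 1 (1.07), and Neurod6, of cortical neurons, was below in 3 (1.82). Over single libraries Slc17a7, Vip, Gad1 and Neurod6 had 0 strains outside, and Sst and Cck 1 each. Penk, the enkephalin precursor of striatal neurons, was above in 4 strains, Aebp1, a marker of meningeal fibroblasts, in 4 and Grm4, abundant in cerebellar granule cells, in 2, with permuted means of 2.29, 2.68 and 3.26. Among blood genes Hbb-b1, a beta globin, was below in 5 strains and above in 1, with a permuted mean of 2.35, and the globins are a multigene family. Kl, a choroid plexus gene, was below in 1 strain (permuted mean 0.24). Npy was above in 2 and below in 1 (permuted mean 2.95). The single olfactory bulb marker that passed the filter had no strain outside.

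The genes with the most strains outside had permuted counts of about the same size. Rere, a nuclear receptor corepressor, Sergef and Rbm4 were each above the range in 22 of 30 strains, with permuted means of 21.8, 22.6 and 21.8. For Rere, 79 of 88 RI animals lay above all progenitor animals. Hmgn2, Cstf3 and Srsf2 were each below in 19 strains, with permuted means of 17.2, 18.0 and 18.6. For Hmgn2, 73 of 88 RI animals lay below all progenitor animals. Slc16a1, the monocarboxylate transporter MCT1, was an exception, below in 17 strains with a permuted mean of 11.8 and at most 16. In all, 392 genes had more strains outside than in any of their own 100 permutations. The same count for permuted labels averaged 38.1 (5 to 252). Snx30, a sorting nexin, had strains on both sides, 5 above and 13 below, with a permuted mean of 5.75 and at most 10. Its range was narrow, from 10.51 to 10.58, and with batch effects subtracted the strains were 5 above and 6 below.

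Neighbouring genes lay outside together in some strains. Among 9313 genes with a position, 616 runs of 3 or more adjacent genes were outside on the same side in the same strain, against a permuted mean of 364 (162 to 775). The observed number is within the permuted range, and 4 of 100 permuted sets had at least as many. HXB1 held 180 runs and HXB2 held 165. Without these strains there were 271 runs, compared with 243 (132 to 387) after permutation. The longest runs had 9 genes. In HXB2 all 9 genes from Dolk to Asb6 on chromosome 3 (13557826 to 14115276) were above the range, a stretch that includes Nup188, a nuclear pore protein, and Crat, carnitine acetyltransferase. HXB29 was above for 8 of these, from Nup188 to Asb6. In HXB1 a run of the same length went from Ddx54 to Fbxw8 on chromosome 12 (35934713 to 38518712). With the range of single libraries 5 runs remained. The genotypes of the strains in these stretches were not analysed here.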

How the data were processed

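Brain RNA of 232 libraries was sequenced, and the deposited RefSeq gene table of version 7.1 (214 libraries, 197 animals, 20859 features) was used. Per the labels and the study's methods, the authors trimmed reads with cutadapt (1.9.1), removed ribosomal reads with Bowtie2, aligned with HISAT2, quantified with RSEM and transformed counts to a log2 scale with DESeq2. Which versions, genome build and batch adjustment apply to version 7.1 is not given in the sources used here; gene positions are those of the annotation deposited with it. Spike-in rows (73) were left out. Strain and batch were taken from the labels' characteristics, and the batch in the title differed for 26 of 232 samples (5 of the RI strains and 1 progenitor). Libraries with the same strain and replicate number were averaged as 1 animal. Features with a mean above the table's median were tested (10429). The limma fit (version 3.58.1, R 4.3.3) gave 1 mean per strain with eBayes and trend; the p of a pair was the larger of its 2 p-values, adjusted by Benjamini-Hochberg over all genes and strains. Strain labels were permuted 100 times (20 in alternatives); these give counts, no p. The comparison with other strains used 100000 resamples. The limma fit was tested on simulated data. Libraries differ in unknown depth, which limits precision by gene.

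Genes named were the 8 with the most strains above and below, the 6 largest limma calls each way, the 4 with most strains on both sides, the genes of the 4 longest runs and the leading member of each list, besides members of lists and genes said to be chosen after their values were seen. The members and lists were chosen with earlier results of these data known. Same-numbered animals of different strains did not deviate together (median r 0.016, and 41.0% of pairs over 0.1, compared with 37.8% for different numbers), so the numbers were not used as pairs. Other tables of the series (transcripts, reconstructions, strain means) were not used here. Of the mitochondrially encoded genes listed, 0 of 13 were matched by name. Some items of the oligodendrocyte list and of the runs are not reported here.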

Additional observations from a re-analysis of the deposited data

How the results depend on the processing

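The results were recomputed, each under the settings that apply to it, with no filter, centred libraries, progenitor animals or replicate numbers left out, batch effects subtracted, 2 Ensembl tables, the range over single libraries, a margin of 0.5, permutation within batches and, chosen after seeing the data, without BN-Lx animal 1 and the 4 animals near it, without HXB1 and HXB2, without HXB2 and HXB10, and with copies summed. A replicate number left out was an animal's place in the order of its strain, which differs from the label in BXH8, HXB2 and HXB10. Pairs outside exceeded the permuted mean in every setting. The pairs numbered 54282 with no filter, 52851 with batch effects subtracted, 16975 in the Ensembl 96 table of version 5 (4095 genes, and 15081 genes with no filter), 42966 without the animals near BN-Lx animal 1, 2597 over single libraries (1595 genes) and 107 at the margin (47 genes). Leaving out 1 animal number gave 33805 to 47508 pairs for progenitor animals, or 30695 with BN-Lx animal 3 left out, and 47026 to 55938 for replicate numbers. The excess over the permuted mean was 67.0% with batch effects subtracted, 20.3% in the table of version 6, 97.8% over single libraries, 53.3% at the margin, 19.7% without HXB1 and HXB2, and 8.11% to 34.7% leaving out animals or replicate numbers.

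The share of held-out animals outside was 68.9% with batch effects subtracted, 38.3% over single libraries and 46.9% at the margin. Batch effects were estimated beside the true strain labels, over all animals, before any animal was held out or label permuted. In that setting the share and the excess over permuted labels are therefore not independent of the labels. Runs numbered 2102 with batch effects subtracted, 52 in version 5, 5 over single libraries, 0 at the margin, 271 without HXB1 and HXB2, and 640 to 2009 leaving out animals or replicate numbers. The difference from other strains reversed with batch effects subtracted (-1285, permutation p = 0.0105) and at the margin (-2.03, permutation p = 0.101). It also reversed in version 5, against 12 other strains in place of 25 (-1025, permutation p = 1e-05, the smallest that the resamples can give). The limma pairs numbered 83 with no filter, 194 with batch effects subtracted, 264 in version 5, 16 with a replicate block (all 16 among the 33 and none of Sgk1, although the numbers pair no animals), and 3 to 33 leaving out animals or replicate numbers; without SHR animal 4 they were 3, and without replicate 2 they were 8. Of the 33 pairs, 9 could be matched in version 5 and 10 in version 6, which hold the same brains, and all of these lay outside on the same side. Strains outside summed over the named genes numbered 674, and 442 in version 6, 185 in version 5, 149 over single libraries and 26 at the margin.

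For single genes 755 values kept within 1.5 times, 269 moved and 9 turned side: Dgke (4 strains) and Pcdhga10 (10) without BN-Lx animal 2, Pcdhga10 (3) without replicate 3, Hbb-b1 (11) without SHR animal 1, Kl (4) without SHR animal 4, LOC685085 (20) with batch effects subtracted, Grm4 (2) and Slc16a1 (4) in version 5, and Rpl8 (1) at the margin. The cause was not tested. Depth is unknown, and the SHR side of the range rests on 2 animals.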
